A study of Mus musculus with 80 samples.

Results

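The proteasome subunit genes comprise the 20S core, the 19S regulatory particle and the factors that activate or assemble them. They were chosen by symbol: every probe named Psma, Psmb, Psmc or Psmd with a number, and Psme1 to Psme4, Psmf1 and Psmg1. The choice took in 42 genes with 62 probes, of 16593 genes and 25697 probes on the array. Of these genes 26 had 1 probe, 12 had 2 and 4 had 3, and the probe with the highest mean signal stood for the gene. The symbol pattern also took in Psmc3ip, whose product is a recombination factor named after an interaction with an ATPase of the particle and is no subunit. Psma8, Psmb11, Psmd3 and Psmf1 were not analysed here.

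The tissues came from adult female Balb/c mice of the nude strain, in which Foxn1 is inactive in all groups, so that no functional thymus forms and mature T cells are few. The alpha emitter 211At was given intravenously. At 1.7 kBq there were groups of 3 mice for each of the times 1 h, 6 h and 7 days, and groups of 2 mice received 105 kBq for 1 h or 7.5 kBq for 6 h. The 3 control mice received a mock injection (0 kBq) and lived for 24 h. Kidney cortex, kidney medulla, liver, lung and spleen of each group were measured on Illumina MouseRef-8 BeadChips, which gave 16 arrays per tissue and 80 in all. Because the control mice were killed at a time that no exposed group shares, effects of exposure and of the time of killing cannot be told apart in any comparison with control.

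The 20S proteasome is a barrel of stacked rings, with alpha subunits (Psma genes) at both ends and beta subunits (Psmb genes) inside. The proteolytic sites lie in the standard subunits beta 1, beta 2 and beta 5, encoded by Psmb6, Psmb7 and Psmb5. After stimulation with interferon gamma, and constitutively in many haematopoietic cells, newly built particles take up Psmb9, Psmb10 and Psmb8 in their place, which forms the immunoproteasome and favours peptides that fit MHC class I molecules. The 19S particle, made of ATPases (Psmc genes) and non-ATPase subunits (Psmd genes), binds ubiquitin chains, unfolds substrates and feeds them into the barrel. Alternative caps are PA28 alpha and beta (Psme1 and Psme2), PA28 gamma (Psme3) and PA200 (Psme4).

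Values are log2 of the deposited quantile-normalized signal, and differences are in log2 units with the standard error (SE) of the limma fit. Calls of regulation needed a Benjamini-Hochberg adjusted p under 0.01 together with a fold change of 1.5 or more. A probe entered a fit where at least 2 of its arrays lay above a background cutoff of 6.88 on the log2 scale. Of the 42 genes, 41 entered the fits of kidney cortex, liver, spleen and the controls, and 40 those of kidney medulla and lung. Psma1, an alpha ring subunit, lay between 6.54 and 6.78 on the 80 arrays and was never above the cutoff, and Psma6, of the same ring, lay between 6.54 and 7.26 and was left out in kidney medulla and lung. The level of 1 probe cannot be set against that of another, so levels are compared between tissues and groups only.

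Marker genes bore out the labels of the control tissues as liver, lung, spleen or kidney. Called higher in the labelled tissue than in the mean of the other 4 were 8 of 8 hepatocyte markers in liver, 6 of 6 lung epithelium markers, 5 of 6 proximal tubule markers in cortex, 5 of 6 markers of the loop of Henle and collecting duct in medulla and 5 of 5 B cell markers in spleen. These lists did not tell cortex from medulla. The proximal tubule list had medians of 11.97 to 12.62 on the control arrays of cortex and 11.37 to 12.06 on those of medulla. The loop of Henle and collecting duct list had 10.40 to 10.65 in cortex and 10.35 to 10.55 in medulla. Of the 80 arrays, 4 carried transcripts of another tissue, with the median of that tissue's marker list 9.08-fold to 160-fold above the tissue's median array. The array labelled replicate 1 of kidney medulla 7 days after 1.7 kBq went against its label. Its hepatocyte markers had a median log2 signal of 14.17, within the 14.01 to 14.30 of the liver arrays, and its proximal tubule (6.75) and loop of Henle markers (6.86) lay below the cutoff, against 11.37 to 12.29 and 10.08 to 10.71 on the other medulla arrays. Over all kept probes it correlated at 0.988 with the mean of liver and at 0.772 with that of medulla. The remaining 3 kept their own tissue's markers and carried others beside them. They were replicate 1 of kidney cortex 6 h after 7.5 kBq (hepatocyte genes), of lung 6 h after 7.5 kBq (proximal tubule genes) and of spleen 7 days after 1.7 kBq (exocrine pancreas genes). No control array was among the 4. Values below include these arrays unless stated, and without them the count of regulated members was the same in every comparison of exposed with control in these 4 tissues.

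Promoter windows, from 250 bases before to 50 bases after the start, were available from RefSeq (build GRCm38.p6) for 37 of the 42 genes. Those of Psmb9, Psmb8 and Psme1 are printed, in the gene's direction, as examples of the genes called higher in spleen and lower in both kidney tissues below. The windows lie at chr17:34187281-34187580 on the minus strand, chr17:34197945-34198244 on the plus strand and chr14:55578244-55578543 on the plus strand. Capitals mark a CCAAT box in Psmb9, read on the opposite strand as ATTGG, a gamma-activated site in Psmb8 and an interferon-stimulated response element in Psme1, also on the opposite strand.
Psmb9: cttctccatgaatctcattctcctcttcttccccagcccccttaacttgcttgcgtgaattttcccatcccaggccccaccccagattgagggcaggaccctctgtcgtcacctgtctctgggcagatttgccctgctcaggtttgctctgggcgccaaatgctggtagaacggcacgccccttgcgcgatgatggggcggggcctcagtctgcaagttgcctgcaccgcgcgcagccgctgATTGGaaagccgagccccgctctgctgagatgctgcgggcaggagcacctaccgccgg
Psmb8: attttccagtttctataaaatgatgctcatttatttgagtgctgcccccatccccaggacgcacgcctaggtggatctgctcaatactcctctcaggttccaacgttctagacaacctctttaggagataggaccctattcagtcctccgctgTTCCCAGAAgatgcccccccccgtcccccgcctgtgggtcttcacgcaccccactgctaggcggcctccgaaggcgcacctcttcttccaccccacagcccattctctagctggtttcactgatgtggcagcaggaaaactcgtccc
Psme1: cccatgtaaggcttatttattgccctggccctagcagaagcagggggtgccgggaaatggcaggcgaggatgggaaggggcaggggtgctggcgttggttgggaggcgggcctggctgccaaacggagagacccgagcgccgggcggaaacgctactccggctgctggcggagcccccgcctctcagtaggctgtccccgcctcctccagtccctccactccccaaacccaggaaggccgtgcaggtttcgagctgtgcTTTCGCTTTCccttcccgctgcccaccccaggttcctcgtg

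Motifs were searched on both strands as plain letters. The interferon-stimulated response element, GAAANNGAAA, was found in 4 of 37 member windows (10.8%; Psmb3, Psmd4, Psmd9 and Psme1) and in 3.44% of all 32851 windows. In Psme1 the match was GAAAGCGAAA, 10 bases after the start. The gamma-activated site, TTCNNNGAA, stood in 3 of 37 (8.11%; Psmb8, Psmd2 and Psmg1) and in 8.3% of all windows, with the match TTCCCAGAA 97 bases before the start of Psmb8. The antioxidant response element, TGACNNNGC, which is bound by NRF factors that raise proteasome genes, stood in 6 of 37 (16.2%; Psmb5, Psmb6, Psmc6, Psmd12, Psmd9 and Psme4) and in 12.4% of all windows. CCAAT was found in 14 of 37 (37.8%) against 37.4%, and TATAAA in 4 of 37 (10.8%) against 13.6%. The window of Psmb9 shares 275 bases, on opposite strands, with that of Tap1, which encodes a subunit of the peptide transporter of antigen presentation. Matches are letters in these windows and were not tested as binding sites.

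In the control mice, the immunoproteasome genes separated the 5 tissues more widely than the standard catalytic genes did. Between the control tissue with the highest and that with the lowest mean, Psmb8, Psmb9 and Psmb10 differed 2.81-fold to 6.51-fold (median 3.58), while Psmb5, Psmb6 and Psmb7 differed 1.3-fold to 2.63-fold (median 1.64). The median over all 17929 kept probes was 1.62-fold and that over the 41 kept members 1.7-fold, and 13 members (31.7%) spanned at least 2-fold, against 37% of all kept probes. Each immunoproteasome gene was highest in spleen and lowest in the kidney. The plot of the catalytic pairs in control tissues gives every array.

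**Figure D1:**
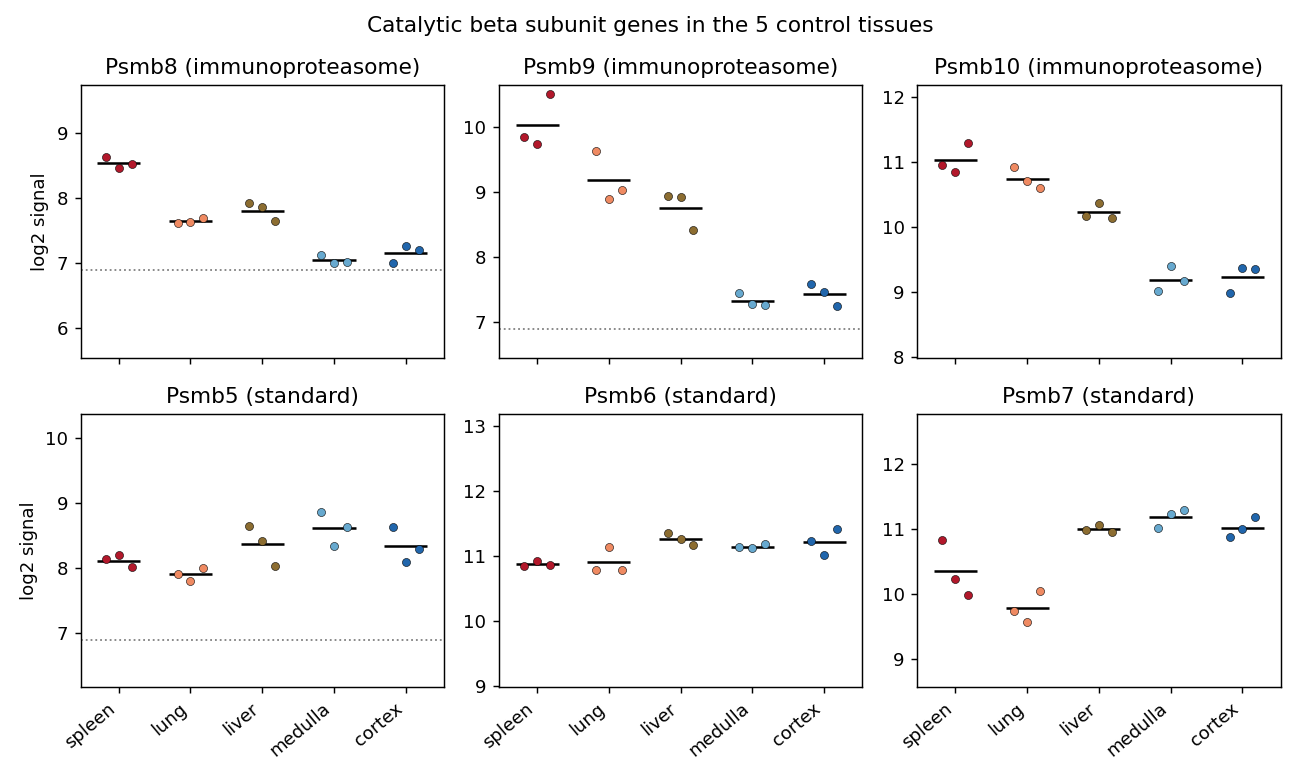
Log2 signal of the immunoproteasome genes (upper row) and of the standard subunits they replace (lower row) on the 3 control arrays of each tissue; points are arrays, bars are means, and the dotted line is the background cutoff of 6.88. Psmb9 averages 10.02 in spleen and 7.32 in kidney medulla, and the standard subunits are not highest in spleen.

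Psmb9, the immunoproteasome subunit in the place of Psmb6, had log2 signals of 9.84, 9.73 and 10.50 in control spleen, 9.63, 8.88 and 9.03 in lung, 8.93, 8.92 and 8.41 in liver, 7.45, 7.27 and 7.25 in kidney medulla and 7.58, 7.46 and 7.24 in kidney cortex. All 3 spleen arrays lay above all other arrays, lung and liver overlapped, and both kidney tissues lay under all the rest. The spleen mean was 1.85 above the mean of the other 4 tissues (3.62-fold, SE 0.175, adjusted p = 6.06e-07 by limma), and the lung mean was 0.80 above (SE 0.175, adjusted p = 0.00168), a call lost without lung replicate 1 (0.58, adjusted p = 0.0186). In the kidney the differences were -1.52 in medulla (SE 0.175, adjusted p = 9.82e-06) and -1.39 in cortex (adjusted p = 2.31e-05). With background subtracted, the differences of Psmb9 were 2.63 in spleen, 1.397 in lung, -2.54 in medulla and -2.20 in cortex. In the order of means, spleen passed the threshold against lung (0.84, adjusted p = 0.00678) and liver against kidney cortex (1.32, adjusted p = 0.000261). The neighbours lung and liver (0.43, adjusted p = 0.123) and medulla and cortex (-0.10, adjusted p = 0.976) did not.

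Psmb8, which takes the place of Psmb5, had 8.63, 8.46 and 8.52 in control spleen, 7.62, 7.62 and 7.68 in lung, 7.91, 7.85 and 7.64 in liver, 7.11, 7.00 and 7.01 in medulla and 6.99, 7.26 and 7.20 in cortex. Spleen was apart from all other tissues, and the kidney arrays were the lowest, close to the cutoff. The difference of spleen from the mean of the others was 1.13 (2.18-fold, SE 0.0689, adjusted p = 7.42e-09 by limma), against -0.74 in medulla (adjusted p = 1.24e-06) and -0.60 in cortex (adjusted p = 9.27e-06). Liver and lung were neighbours that did not pass (lung minus liver -0.16, adjusted p = 0.151), and without replicate 1 of control cortex the call of Psmb8 in cortex was lost. The signals include background, and with it subtracted the differences were 2.26 in spleen, -1.99 in medulla and -1.42 in cortex, so that the folds of this dim gene depend on that choice.

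Psmb10, which takes the place of Psmb7, had 10.96, 10.84 and 11.29 in control spleen, 10.93, 10.71 and 10.60 in lung, 10.18, 10.38 and 10.14 in liver, 9.02, 9.40 and 9.17 in medulla and 8.99, 9.37 and 9.35 in cortex. Here spleen and lung overlapped, liver was between, and the kidney tissues were again lowest. Spleen lay 1.18 above the mean of the others (2.27-fold, SE 0.114, adjusted p = 7.38e-07 by limma), and lung 0.82 above (1.77-fold, adjusted p = 3.49e-05). The difference of spleen from lung was 0.29 (adjusted p = 0.131). The kidney differences were -1.12 in medulla (adjusted p = 2.95e-06) and -1.06 in cortex (adjusted p = 5e-06). A second probe of Psmb10 was called in the same directions in spleen (1.10), lung (0.84), medulla (-1.02) and cortex (-1.24).

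The standard subunits did not follow that order. Psmb6 had 10.85, 10.93 and 10.87 in control spleen, 10.79, 11.14 and 10.79 in lung, 11.36, 11.26 and 11.18 in liver, 11.14, 11.12 and 11.19 in medulla and 11.24, 11.02 and 11.42 in cortex, and was called in no tissue. Psmb5 had 8.13, 8.19 and 8.01 in spleen, 7.91, 7.79 and 7.99 in lung, 8.65, 8.41 and 8.03 in liver, 8.86, 8.34 and 8.63 in medulla and 8.63, 8.08 and 8.29 in cortex, and was likewise called in none of the comparisons with the mean of the others. For both genes most tissues overlapped, with lung and spleen at the low end, and between pairs Psmb5 was called lower in lung than in medulla (-0.71, adjusted p = 0.00324 by limma).

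Psmb7 had 10.84, 10.24 and 9.99 in control spleen, 9.74, 9.57 and 10.06 in lung, 10.99, 11.06 and 10.95 in liver, 11.01, 11.23 and 11.30 in medulla and 10.88, 11.01 and 11.18 in cortex. All lung arrays lay under all arrays of liver and kidney, and the difference of lung from the mean of the others was -1.10 (0.466-fold, SE 0.143, adjusted p = 1.91e-05 by limma). Both further probes of Psmb7 were called lower in lung (-0.75 and -0.81). Medulla was called 0.64 higher (adjusted p = 0.00256), a call lost without medulla replicate 2 or 3 and under cyclic loess normalization, and the further probes gave 0.37 and 0.0003 there. Cortex, with 0.44 (adjusted p = 0.0248), did not pass.

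Counted over the class, 3 of 3 immunoproteasome genes were called higher in spleen, 2 of 3 in lung and 0 in liver, and 3 of 3 were called lower in each kidney tissue. Of the 3 standard genes, 0 were called in spleen, where all 3 were lower (median -0.25), 1 was called lower in lung and 1 higher in medulla. These counts moved by 1 under some alternatives: Psmb7 was called lower in spleen without spleen replicate 1 (-0.63, adjusted p = 0.000498) and higher in liver under cyclic loess (0.70, adjusted p = 0.00106), and Psmb8 higher in liver with background subtracted (0.77, adjusted p = 0.00863). With all probes of the members used, Psmb7 was also called in liver, by a further probe. Over all 41 members, 14 were called in spleen (34.1%), where 30.5% of all probes were called, 9 in liver (22%) against 25.2%, 6 in lung (14.6%) against 22.7%, 6 in medulla (14.6%) against 16.6%, and 4 in cortex (9.76%) against 16.6%. In spleen 13 members (31.7%) were called higher and 1 (2.44%) lower, while all probes split into 15.4% higher and 15.1% lower. In the other 4 tissues the share of members called was under that of all probes. Between pairs of tissues, members were called higher and lower in numbers of 11 and 0 for spleen against lung (22.8% of all probes called), 12 and 5 against liver (33.4%), 15 and 2 against medulla (32.2%) and 13 and 2 against cortex (31.8%). Lung gave 3 and 7 against liver (31.3%), 5 and 4 against medulla (25.8%) and 3 and 2 against cortex (25.8%), and liver 7 and 0 against medulla (22%) and 4 and 0 against cortex (20.7%). Between medulla and cortex, 0 of 41 members were called, against 2.15% of all probes. An unadjusted p under 0.05 by limma was found for 2 members, against 14.2% of all probes. Tissues of a group came from the same few mice, and the fits treat the arrays as independent.

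**Figure D2:**
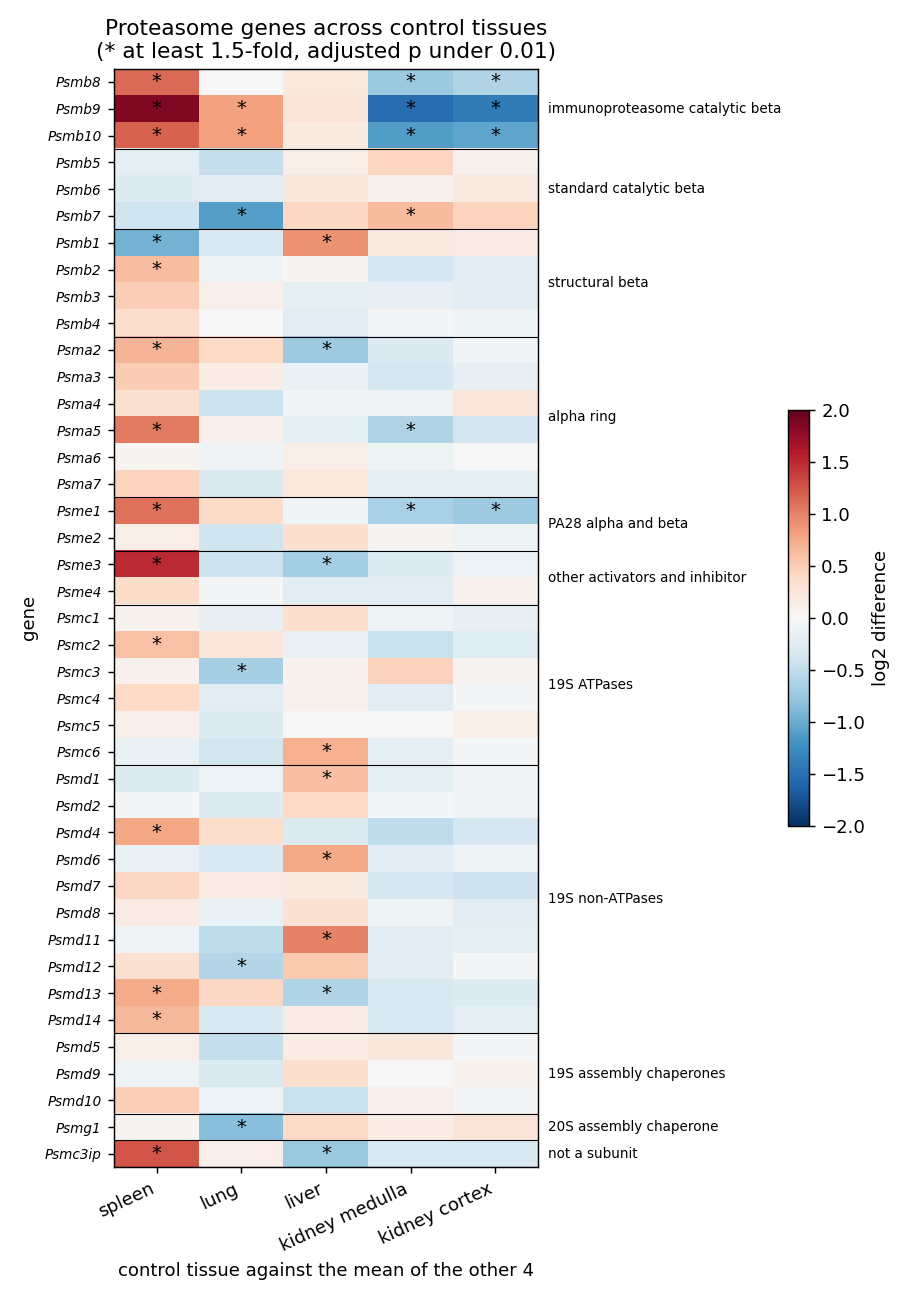
Difference of each control tissue from the mean of the other 4, in log2 units, for the 41 members that entered the fit, ordered by class; an asterisk marks a called difference. The immunoproteasome rows run from 1.85 in spleen to -1.52 in kidney medulla for Psmb9, while most rows of the core and of the 19S particle stay within 1.5-fold.

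Markers of immune cells were also high in spleen. In control spleen 5 of 6 T and NK cell markers, 5 of 5 B cell markers, 4 of 5 macrophage markers and 7 of 7 neutrophil markers were called higher than in the mean of the other tissues. The median log2 signal of the T and NK list was 9.08 to 9.61 on the spleen arrays, 7.62 to 7.78 in lung, 6.85 to 6.95 in liver and 6.79 to 6.88 in the kidney tissues. The B cell list had 10.29 to 10.96 in spleen. The neutrophil list had 13.97, 12.79 and 11.84 on replicates 1 to 3 in spleen, 11.96, 7.76 and 7.16 in lung, 9.56, 7.55 and 7.12 in liver and 6.82 to 7.32 in the kidney tissues. Replicate 1 of control lung thus lay within the spleen range, and it is the array without which the lung call of Psmb9 was lost. The macrophage list had 9.96 to 10.71 in spleen, 9.43 to 10.27 in liver, 8.06 to 8.67 in lung, 8.15 to 8.88 in medulla and 7.51 to 7.70 in cortex. Their part in the immunoproteasome levels was not tested, and in such bulk samples fewer cells of a type and less RNA per cell cannot be told apart.

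Most listed genes that act with the immunoproteasome in antigen presentation were also called higher in spleen and lower in the kidney. Of 9 listed genes with a probe, 6 were called higher in spleen (median 0.96), 3 in lung and 1 in liver, while 7 were called lower in medulla (median -1.05) and 7 in cortex (median -0.81). Of all probes, 15.4% were called higher in spleen, 11.6% in lung and 10.6% in liver, and 7.79% lower in medulla and 7.71% in cortex. In spleen the transporter subunits Tap1 and Tap2 had differences of 1.44 and 0.96, the transcription factor Irf1 1.53 and the class I heavy chain H2-K1 1.27. Of 5 listed assembly and further subunit genes, 3 were called higher in spleen.

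The activator genes behaved unlike each other. Psme1, the alpha subunit of PA28, had 11.58, 11.84 and 12.05 in control spleen, 11.22, 11.18 and 11.33 in lung, 11.07, 10.73 and 10.86 in liver, 10.49, 10.39 and 10.42 in medulla and 10.27, 10.52 and 10.31 in cortex. Spleen was above all other arrays and the kidney tissues were under them, with differences of 1.09 in spleen (2.12-fold, SE 0.0927, adjusted p = 2.14e-07 by limma), -0.65 in medulla (adjusted p = 7.54e-05) and -0.73 in cortex (adjusted p = 2.54e-05). A second probe of Psme1 had 0.57 in spleen (adjusted p = 3.94e-05) and -0.51 in cortex (adjusted p = 0.000196), both under the fold limit. Psme2, the beta subunit that forms the same ring, had 8.52, 8.65 and 8.70 in spleen, 8.01, 8.14 and 8.43 in lung, 8.49, 8.95 and 8.89 in liver, 8.49, 8.63 and 8.54 in medulla and 8.42, 8.45 and 8.42 in cortex, and was called in no tissue. Spleen, liver and medulla overlapped for Psme2, and lung held the lowest arrays.

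Psme3, which encodes the nuclear activator PA28 gamma, had 10.71, 10.77 and 10.68 in control spleen, 9.10, 9.37 and 9.07 in lung, 9.08, 8.87 and 9.001 in liver, 9.27, 9.25 and 9.45 in medulla and 9.51, 9.35 and 9.42 in cortex. The spleen arrays stood more than 1 log2 unit above every other array. The difference was 1.495 (2.82-fold, SE 0.0718, adjusted p = 6.65e-10 by limma), and against each single tissue it lay between 1.30 and 1.74. Liver was called lower (-0.68, adjusted p = 2.33e-06), but not under cyclic loess. Psme4, which encodes PA200, had 11.21, 11.71 and 11.20 in spleen, 11.01, 11.27 and 10.93 in lung, 10.91, 10.97 and 10.84 in liver, 10.79, 11.09 and 10.86 in medulla and 11.03, 11.13 and 11.29 in cortex, overlapped between tissues and was not called.

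In the alpha ring, Psma5 had 12.51, 12.73 and 12.55 in control spleen, 11.93, 11.84 and 11.77 in lung, 11.61, 11.59 and 11.67 in liver, 11.30, 11.43 and 11.14 in medulla and 11.32, 11.56 and 11.55 in cortex. Spleen was above all other tissues by 1.04 (2.05-fold, SE 0.0731, adjusted p = 3.07e-08 by limma), and medulla was called lower (-0.60), close to the fold limit and lost without any 1 of 4 control arrays. Psma2, with 11.82, 11.82 and 11.72 in liver, was lower there than on every other control array, with -0.73 (adjusted p = 4.54e-06, but -0.20 and adjusted p = 0.0656 under cyclic loess normalization), and higher in spleen with 0.68. Of the 6 alpha genes tested, 2 were called higher in spleen and all 6 had a positive difference there (median 0.48).

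Among the structural beta genes, Psmb1 had 10.96, 10.78 and 10.97 in control liver, 10.18, 8.95 and 9.14 in spleen, 9.84, 10.08 and 9.91 in lung, 10.33, 10.29 and 10.36 in medulla and 10.24, 10.22 and 10.47 in cortex. Liver was above all others (0.91, 1.87-fold, SE 0.179, adjusted p = 0.000694 by limma). In spleen Psmb1 was the only member called lower (-0.95, adjusted p = 0.000407), with replicates 2 and 3 under every other control array and replicate 1 among those of lung and kidney. Psmb2 was called higher in spleen by 0.62, and a further 2 probes of it gave 0.43 and 0.16 there and were not called, and its call was lost without spleen replicate 3.

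Subunits of the 19S particle were called mainly in liver and spleen. Psmd11, a lid subunit, had 9.60, 9.21 and 9.36 in control liver, 8.64, 8.42 and 8.55 in spleen, 8.13, 8.16 and 8.27 in lung, 8.48, 8.25 and 8.51 in medulla and 8.41, 8.43 and 8.49 in cortex. Every liver array lay above every other control array, with a difference of 1.00 (SE 0.0793, adjusted p = 1.27e-07 by limma), and a second probe gave 0.95. Psmd6, also of the lid, had 9.21, 9.06 and 8.69 in liver, and the other control arrays lay between 7.89 and 8.71, so that its groups overlapped. It was called with 0.76 (adjusted p = 0.00091), which was lost without liver replicate 1. The ATPase gene Psmc6 (0.71) and the base scaffold gene Psmd1 (0.60) were called higher in liver as well, and Psmd13, a lid subunit, lower (-0.60). The call of Psmc6 was lost without liver replicate 1 or 2 and with background subtracted, that of Psmd1 without any 1 of 3 control arrays, and that of Psmd13 without any 1 of 5 control arrays, among them each liver array, and under cyclic loess.

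In spleen the ubiquitin receptor gene Psmd4 (0.77), Psmd13 (0.74), the deubiquitinase gene Psmd14 (0.64) and the ATPase gene Psmc2 (0.59) were called higher. The call of Psmd13 was lost without spleen replicate 1, that of Psmd14 without spleen replicate 1 or 2, and that of Psmc2 without any 1 of 6 control arrays. In lung, the ATPase gene Psmc3 had 9.22, 9.46 and 9.15, against 9.50 to 10.26 on the other control arrays, and was called lower (-0.67, SE 0.107, adjusted p = 0.000144 by limma). Psmd12, of the lid, had -0.59 in lung, a call lost without any 1 of 5 control arrays. The chaperone gene Psmg1, which helps to assemble the alpha ring, had 7.42, 7.50 and 7.41 in lung, 8.32, 8.13 and 7.995 in spleen, 8.35, 8.39 and 8.52 in liver, 8.16, 8.24 and 8.29 in medulla and 8.29, 8.31 and 8.34 in cortex. It was lower in lung than on every other array (-0.84, 0.56-fold, SE 0.0639, adjusted p = 9.47e-08). No chaperone of the 19S particle (Psmd5, Psmd9 and Psmd10) was called against the mean of the other tissues, and between pairs Psmd10 was called higher in spleen than in liver (0.73, adjusted p = 6.94e-05). Psmd10 was also called in spleen without spleen replicate 3 (0.59), and Psmd5 in lung with background subtracted (-1.34).

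Psmc3ip, no subunit, had 8.69, 8.72 and 8.12 in control spleen, and the other control arrays lay between 6.82 and 7.64, with liver lowest. Its differences were 1.26 in spleen (2.39-fold, SE 0.115, adjusted p = 4.2e-07 by limma) and -0.75 in liver (adjusted p = 8.1e-05), where 1 of 3 control arrays lay above the cutoff. With background subtracted they were 2.57 and -2.09, and the size of the liver difference is not well measured.

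After 211At, proteasome genes stayed close to control. In the 25 comparisons of an exposed with a control group, 3 of 1015 tests of members were called, all lower and all in liver: Psmb9 1 h after 1.7 kBq, Psmb9 1 h after 105 kBq and the 19S subunit gene Psmd11 6 h after 1.7 kBq. Over all probes, 876 of 413195 tests were called (0.212%). In liver 1 of 41 members (2.44%) was called in each of these comparisons, against 1.25%, 1.06% and 0.635% of all probes, and 0 were called 6 h after 7.5 kBq and 7 days after 1.7 kBq, against 1.22% and 0.0393%. In the other tissues 0 members were called. The background there was 0.24%, 0.203%, 0.0493%, 0.111% and 0% of all probes in cortex, for 1 h after 1.7 and 105 kBq, 6 h after 1.7 and 7.5 kBq and 7 days. In lung it was 0.076%, 0.0633%, 0%, 0.019% and 0%, and in medulla and spleen it was 0.0242% and 0.00613% at 1 h after 1.7 kBq and 0% at the other exposures. Of the 1015 tests, 994 gave a difference within 1.5-fold, and 120 (11.8%) had an unadjusted p under 0.05 by limma, against 9.61% over all probes. The 5 comparisons of a tissue share their control arrays.

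**Figure D3:**
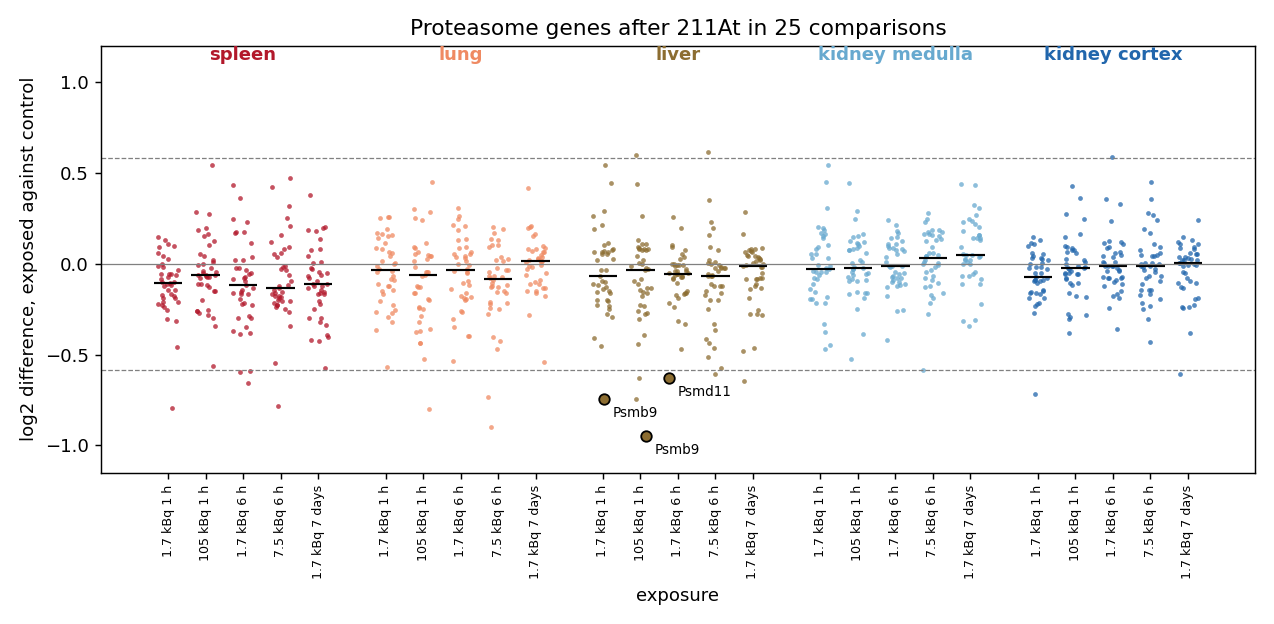
Difference of exposed from control, in log2 units, for each member in each of the 25 comparisons; the black bar is the median of the members, dashed lines mark 1.5-fold, and the large outlined points are the 3 called differences. Medians lie between -0.13 and 0.05 with all arrays, including the array labelled medulla that reads as liver, and the called points are Psmb9 (-0.75 and -0.95) and Psmd11 (-0.63) in liver.

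The median difference over the members ran from -0.13, in spleen 6 h after 7.5 kBq with 12 higher and 29 lower, to 0.05 in the arrays labelled medulla 7 days after 1.7 kBq, of which replicate 1 reads as liver, and it was under 0 in 21 of 25 comparisons. Without the 4 arrays that carry another tissue's transcripts it was 0.01 in that group, ran from -0.13 to 0.03 in all and was under 0 in 20 of 25. By class, the medians of the immunoproteasome genes lay between -0.47 and 0.25 (18 of 25 under 0) and those of the standard catalytic genes between -0.31 and 0.08 (23 of 25 under 0). Without the 4 arrays these ranges were -0.44 to 0.36 (18 under 0) and -0.22 to 0.08 (23 under 0). The alpha ring genes were called in 0 of 140 tests, with 27 (19.3%) at an unadjusted p under 0.05 by limma. The ATPase genes were called in 0 of 150, with 15 (10%), the structural beta genes in 0 of 100, with 12 (12%), and the standard catalytic genes in 0 of 75, with 7 (9.33%).

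In liver, Psmb9 had log2 signals of 7.82, 8.16 and 8.03 at 1 h after 1.7 kBq and 7.89 and 7.72 at 1 h after 105 kBq, against 8.93, 8.92 and 8.41 in control. All exposed arrays at 1 h lay under all control arrays, among which replicate 3 was the lowest. The differences were -0.75 (0.597-fold, SE 0.139, adjusted p = 0.00576 by limma) and -0.95 (0.519-fold, SE 0.155, adjusted p = 0.00335). Psmb9 had 8.60, 8.25 and 8.41 at 6 h after 1.7 kBq, which overlapped control, 8.07 and 8.28 at 6 h after 7.5 kBq, and 8.25, 8.17 and 8.39 at 7 days after 1.7 kBq. At these exposures the differences were -0.33 (adjusted p = 0.318), -0.57 (adjusted p = 0.0492) and -0.48 (adjusted p = 0.283). The call at 1.7 kBq was lost when replicate 1 or 3 of the exposed livers or replicate 1 or 2 of the controls was left out, and that at 105 kBq when either exposed array or replicate 1 or 2 of the controls was, with differences of -0.92 to -0.65 and of -1.12 to -0.86 over all such omissions. Both calls also ended with background subtracted, where the differences were larger (-1.11, adjusted p = 0.0216, and -1.46, adjusted p = 0.0122), and with only the 2 groups in the fit, where they were the same (adjusted p = 0.0275 and 0.0191).

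**Figure D4:**
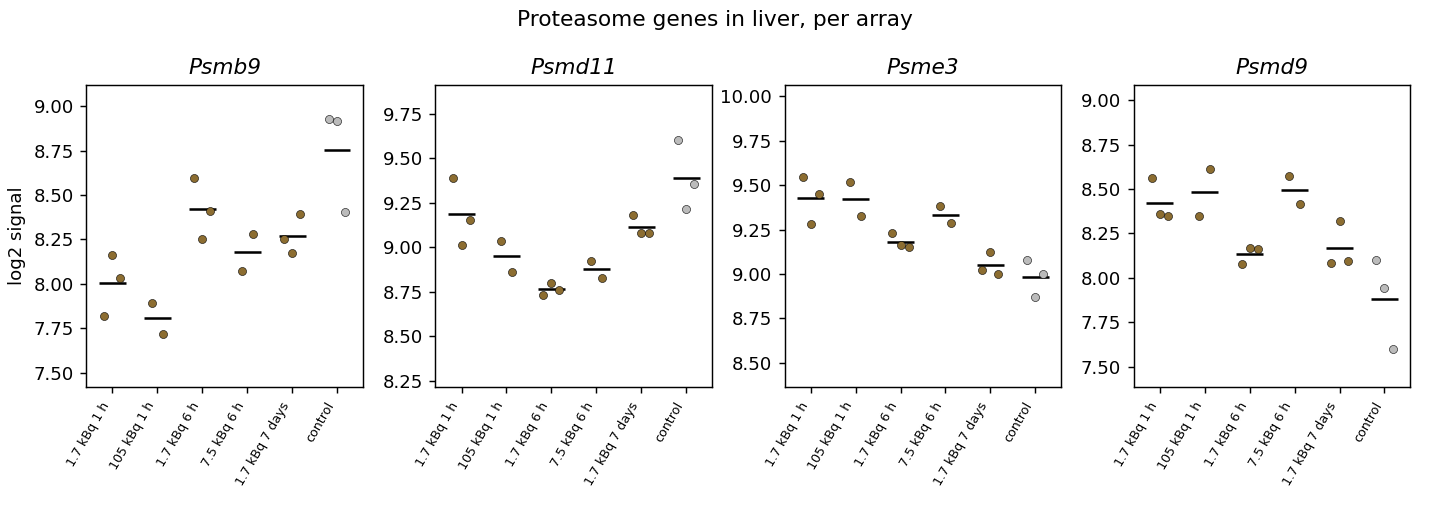
Log2 signal of Psmb9, Psmd11, Psme3 and Psmd9 on every liver array, with the 5 exposed groups on the left and control on the right; points are arrays and bars are means. Psmb9 at 1 h lies at 7.72 to 8.16 against 8.41 to 8.93 in control, and Psmd11 at 6 h after 1.7 kBq at 8.73 to 8.80 against 9.21 to 9.60.

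The other catalytic genes were not called in liver. At 1 h after 1.7 kBq, Psmb10 had 9.94 on each of the 3 exposed arrays, against 10.18, 10.38 and 10.14 in control, a difference of -0.29 (SE 0.133, adjusted p = 0.257 by limma). Psmb8 had 7.60, 7.73 and 7.37, against 7.91, 7.85 and 7.64, a difference of -0.23 (adjusted p = 0.222). The standard subunit Psmb6, which Psmb9 replaces, had 11.27, 11.12 and 11.21, against 11.36, 11.26 and 11.18, and -0.07 (adjusted p = 0.729). Psmb10 was apart from control, Psmb8 and Psmb6 were not. At 1 h after 105 kBq the differences were -0.23 for Psmb10, -0.14 for Psmb8 and -0.03 for Psmb6, with adjusted p from 0.472 to 0.933.

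Other genes of antigen presentation lay lower in the same livers, without a call: 9 of 9 were lower 1 h after 1.7 kBq (median -0.31), with -0.66 for Irf1 (adjusted p = 0.0119 by limma), -0.48 for H2-K1 (adjusted p = 0.0135) and -0.38 for Tap1 (adjusted p = 0.0403), and 7 of 9 were lower 1 h after 105 kBq (median -0.12). Macrophage and neutrophil markers lay lower as well 1 h after 1.7 kBq. There, 5 of 5 macrophage markers were lower (median -0.62), and the list's median signal was 8.74 to 9.12 on the exposed arrays, against 9.43 to 10.27 in control. All 7 neutrophil markers were lower (median -1.10). Their list had 6.77 to 7.19, against 9.56, 7.55 and 7.12 on control replicates 1 to 3, so that replicate 1 stood far above the others. After 105 kBq the macrophage list had 8.97 and 9.67, and the neutrophil list 7.33 and 7.97, and both overlapped control. No marker of these lists was called, and their part in the difference of Psmb9 was not tested.

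Psmd11 in liver had 8.73, 8.80 and 8.76 at 6 h after 1.7 kBq, against 9.60, 9.21 and 9.36 in control. Its 3 exposed arrays were close together and all under control, with a difference of -0.63 (0.647-fold, SE 0.106, adjusted p = 0.00516 by limma). The further 2 probes of Psmd11 gave -0.53 (adjusted p = 0.172) and -0.02 (adjusted p = 0.968). At 1 h Psmd11 had 9.39, 9.02 and 9.15 after 1.7 kBq and 9.04 and 8.86 after 105 kBq, at 6 h after 7.5 kBq 8.92 and 8.83, and at 7 days 9.18, 9.08 and 9.08. Only the 1.7 kBq group at 1 h overlapped control among these, and the differences after 105 kBq (-0.44, adjusted p = 0.0488) and 7.5 kBq (-0.52, adjusted p = 0.0231) did not pass. The call was lost without any 1 of the 3 exposed arrays, or without control replicate 1 or 3, with differences of -0.72 to -0.52. It also ended with background subtracted (-0.78, adjusted p = 0.0141) and with only the 2 groups in the fit (-0.63, adjusted p = 0.0555).

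Some members lay higher in liver without passing both limits. Psme3 had 9.54, 9.28 and 9.45 at 1 h after 1.7 kBq, against 9.08, 8.87 and 9.001 in control, with no overlap and a difference of 0.44 (1.36-fold, adjusted p = 0.00778 by limma), under the fold limit. After 105 kBq it had 9.52 and 9.33, and the difference was 0.44 (adjusted p = 0.0175). At 7 days it was back among the control arrays, with 9.02, 9.12 and 8.999.

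Psmd9, a chaperone that guides assembly of the 19S base, had 8.56, 8.36 and 8.35 at 1 h after 1.7 kBq, 8.35 and 8.61 at 1 h after 105 kBq and 8.57 and 8.41 at 6 h after 7.5 kBq, against 8.10, 7.94 and 7.60 in control. These exposed arrays were all above control, with differences of 0.54, 0.60 and 0.61 (adjusted p = 0.0158, 0.0185 and 0.0164 by limma). Without control replicate 1, Psmd9 was called 1 h after 1.7 kBq (0.65, adjusted p = 0.00701) and 6 h after 7.5 kBq (0.72, adjusted p = 0.00856). A second probe of Psmd9 gave 0.34 (adjusted p = 0.0932) at 1 h after 1.7 kBq. Psmd2, a scaffold of the 19S base, had 6.99 and 7.06 after 105 kBq and 6.90 and 7.10 after 7.5 kBq, against 7.34, 7.41 and 7.49 in control, apart from control at both, with differences of -0.39 (adjusted p = 0.0326) and -0.42 (adjusted p = 0.0247).

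Outside the liver, Psmb9 was called in no comparison. Its lowest difference was in lung 6 h after 7.5 kBq, with 8.24 and 8.65, against 9.63, 8.88 and 9.03 in control (-0.74, SE 0.361, adjusted p = 0.639 by limma), where replicate 1 carried proximal tubule transcripts (-0.53 without it). Its highest was in spleen 1 h after 105 kBq, with 10.31 and 10.82, against 9.84, 9.73 and 10.50 (0.54, SE 0.335, adjusted p = 0.925), where the groups overlapped. In kidney cortex and medulla its differences lay between -0.19 and 0.44. The highest of these was in the group with the array that reads as liver (8.32, against 7.41 and 7.54 on the other arrays of that group), and without that array it was 0.15. Over the 25 comparisons Psmb9 was higher in 12 and lower in 13.

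Over the same comparisons, Psmb8 ranged from -0.37 to 0.24 (smallest adjusted p = 0.222 by limma), Psmb10 from -0.53 to 0.25 (0.121), Psmb5 from -0.36 to 0.36 (0.306), Psmb6 from -0.22 to 0.08 (0.307) and Psmb7 from -0.66 to 0.06 (0.338). Psmb7 lay lower in 24 of 25 and Psmb10 in 21. Among the activators, Psme1 ranged from -0.40 to 0.21 (0.28), Psme2 from -0.47 to 0.09 (0.157), lower in 23 of 25, and Psme4 from -0.28 to 0.09 (0.302). The chaperone gene Psmg1 ranged from -0.29 to 0.20 (0.315). Without the 4 arrays, Psmb7 was lower in 22 and Psme2 in 22, with smallest adjusted p of 0.0453 and 0.0416, both 1 h after 1.7 kBq in medulla. Psme1 then ranged from -0.23 to 0.31, and Psmb8 up to 0.36. None of these was called, and counts of directions over comparisons that share their control arrays are given as descriptions.

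Psmd8, a lid subunit, was lower in all 25 comparisons, by differences of -0.90 to -0.34, and was called in none (smallest adjusted p = 0.218 by limma). Control replicate 1 was high in each tissue. The 3 control arrays had 10.54, 8.10 and 8.30 in spleen, 10.15, 7.96 and 8.08 in lung, 10.09, 8.67 and 8.44 in liver, 9.91, 8.05 and 8.35 in medulla and 9.94, 7.96 and 8.08 in cortex. The remaining 75 arrays, exposed and control, lay between 7.65 and 8.78. Without control replicate 1, Psmd8 was lower in 9 comparisons and higher in 16, with differences of -0.23 to 0.39 (smallest adjusted p = 0.222).

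At equal times, the higher activity was compared with 1.7 kBq without use of the control arrays. Of 406 member tests in 10 comparisons (105 kBq at 1 h, and 7.5 kBq at 6 h), 0 were called, and 0.000605% of tests over all probes were called (0.00562% in liver for 105 kBq and 0% in the other comparisons). An unadjusted p under 0.05 by limma was found in 31 member tests (7.64%), against 5.75% over all probes. In liver the difference of 105 from 1.7 kBq was -0.20 for Psmb9 (SE 0.155, adjusted p = 0.715), 0.06 for Psmb10 and 0.09 for Psmb8. Between 1 h and 7 days after 1.7 kBq, 0 of 203 member tests were called, against 0.132% over all probes (0.455% in liver, 0.0127% in lung, 0.0123% in spleen and 0% in the kidney tissues). An unadjusted p under 0.05 by limma was found in 21 member tests (10.3%), against 11% over all probes. The smallest adjusted p was that of Psme3 in liver, 0.38 higher at 1 h (adjusted p = 0.0302), followed by Psmd2 with 0.35 (adjusted p = 0.0424).

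Whether an exposure moved members differently in the 5 tissues was tested by a moderated F test over the 80 arrays. At each of the 5 exposures 0 of 41 members passed, with smallest adjusted p of 0.188, 0.281, 0.175, 0.227 and 0.328 by limma for 1.7 kBq at 1 h, 105 kBq, 1.7 kBq at 6 h, 7.5 kBq and 7 days. In the same order, 6, 5, 2, 4 and 6 members had an unadjusted p under 0.05 by limma, against 11%, 9.85%, 8.24%, 9.28% and 10.2% of all probes. Of all probes, 0.559%, 0.521%, 0.263%, 0.498% and 0.0188% passed. Thus the liver calls of Psmb9 were not shown to differ from the other tissues (adjusted p = 0.753 at 1 h after 1.7 kBq and 0.281 at 1 h after 105 kBq). Tissues of a group came from the same few mice, and the F test treats the arrays as independent. Without the 4 arrays that carry another tissue's transcripts, Psmd11 passed at 6 h after 1.7 kBq (adjusted p = 0.00737), with differences of -0.63 in liver, 0.11 in cortex, -0.07 in medulla, -0.10 in lung and 0.23 in spleen.

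Genes around the proteasome were counted from further lists. In the 25 comparisons 0 of 125 tests of assembly factors and further subunits were called, 0 of 140 of ubiquitin shuttles and deubiquitinases, 0 of 75 of transcription factors of proteasome genes and 0 of 225 of antigen presentation genes. Heat shock genes, whose products refold the damaged proteins that the proteasome otherwise degrades, were called higher in 14 of 125 tests and lower in 0. Over all probes 0.212% of tests were called in either direction in these comparisons. The lists were chosen with earlier results of these data known, and the comparisons of a tissue share their control arrays. Counts of the lists are therefore descriptions and not tests. In liver 3 of 5 heat shock genes were called higher 1 h after 1.7 kBq (median 0.93), against 0.769% of all probes. The 41 members had a median of -0.07 in that comparison.

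Within groups, the immunoproteasome genes varied together from array to array. After subtraction of the group mean, the 3 pairs of Psmb8, Psmb9 and Psmb10 had Pearson correlations of 0.54 to 0.68 (median 0.57) over 80 arrays, those of Psmb5, Psmb6 and Psmb7 -0.07 to 0.15 (median 0.11), and the 820 pairs of all members a median of 0.06. By tissue, over 16 arrays each, the median of the immunoproteasome pairs was 0.82 in cortex, 0.62 in spleen, 0.61 in lung, 0.46 in medulla and 0.41 in liver. The array that carries another tissue's transcripts was then left out of the correlation (15 arrays) but kept in its group mean. The median of the immunoproteasome pairs was then 0.83 in cortex, 0.58 in spleen, 0.61 in lung and 0.53 in medulla, values that are not free of that array. In liver the immunoproteasome pairs ran from 0 to 0.47. The standard pairs on these 15 arrays had medians of 0.48 in spleen (0.37 to 0.58), 0.32 in medulla, -0.02 in cortex and -0.37 in lung. In liver, over 16 arrays, their median was -0.09. In spleen the standard genes thus varied together as well. Psmb10 had 0.60 with Psme1, 0.80 with Tap2 and 0.72 with Irf1, and -0.17 with Psmb7, which it replaces. Psmb8 had 0.78 with H2-K1, Psmb9 0.74 with H2-D1, and Psme1 and Psme2 had 0.44. Other pairs were lower: Psmb9 had 0.04 and Psmb10 0.13 with Tapbp, a further gene of antigen presentation, and Psme2 had -0.13 with Tap1. The standard gene Psmb7 had 0.59 with Tapbp. The arrays share mice between tissues and a common normalization, and these values are descriptions.

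**Figure D5:**
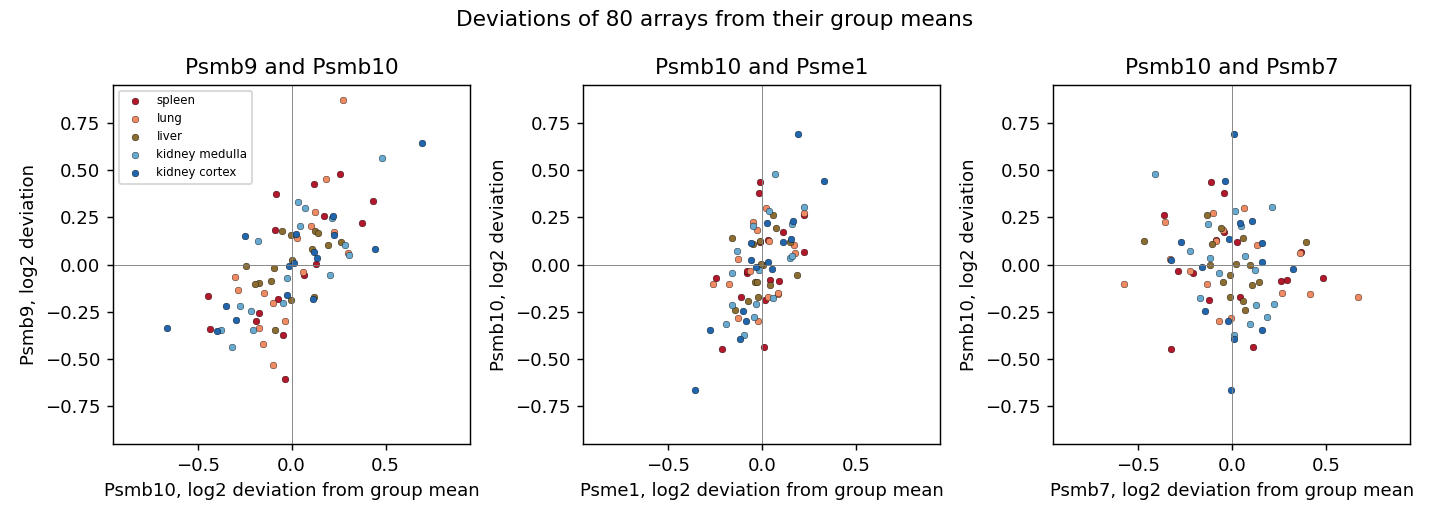
Deviation of each of the 80 arrays from its group mean, in log2 units, for Psmb9 against Psmb10, Psmb10 against Psme1 and Psmb10 against Psmb7; each point is an array, coloured by tissue. The correlations are 0.68, 0.60 and -0.17.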

How the data were processed

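RNA of 5 tissues was measured on 80 Illumina arrays, with 1 column per mouse and tissue in the table used. Per the paper's methods, the authors made the signals with Illumina and BASE software and normalized them by quantiles, and the deposited values are linear intensities (lowest 88.7, median 120.5, highest 27812). Technical triplicates are stated, and their treatment is not given in the sources used here. Versions of that software are likewise not given there. A table of signals before normalization and detection p-values was not used here, since no label pairs its 160 columns with samples. The number of arrays limits the precision of each value.

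Log2 intensities were fitted in R 4.3.3 with limma 3.58.1 (lmFit, eBayes), with 6 group means per tissue for exposure, 5 tissue means over 15 control arrays for tissues, and 30 group means for the F test across tissues. Probes entered where 2 or more arrays lay above the mode of the signal (106.4) plus 2.33 SD of the values under it (4.867), a cutoff of 117.7 that 52.7% of values exceeded. This kept 16224 probes in kidney cortex, 16511 in medulla, 17805 in liver, 15795 in lung, 16304 in spleen and 17929 in controls. The Benjamini-Hochberg adjustment ran over all kept probes of a comparison, and each p is from limma unless named otherwise. Gene symbols came from the platform annotation through gene numbers. Of the probes, 23978 had a symbol and 1719 had none.

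Values per array were given for the catalytic pairs, the activators, Psmg1, each member regulated after exposure and the 5 members with the largest difference in each control tissue. Psma5, Psmd9, Psmd2 and Psmd8 were added after their values were seen. Members and lists were chosen with earlier results of these data known. The fits were tested on simulated data before use. For exposed against control at 1 h, changes of 1 log2 unit were called for 68% (lung, 105 kBq) to 98% (liver, 1.7 kBq) of changed probes. In spleen it was 77% at 1.7 kBq and 70% at 105 kBq, and in medulla 76% at both. Smaller changes were not simulated. Each simulation changed 200 probes at once, by 1 or 2 log2 units. With fewer changed probes the adjusted p is harder to pass, so these shares can overstate recovery where few probes were called, as in spleen and medulla. Alternatives were other filters, background subtraction, cyclic loess, an intensity trend, fits of only the groups compared, other thresholds, a replicate block, all probes, and omission of single arrays or of the 4 arrays with another tissue's transcripts. None of 5 ubiquitin genes on a further list had a named probe here.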

Additional observations from a re-analysis of the deposited data

How the results depend on the processing

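Of the calls between control tissues, 39 of 39 were kept without a filter, with an intensity trend and with all probes, 38 with background subtraction, 37 with every array above the cutoff, 35 with cyclic loess, and 35 to 39 when single control arrays were left out. With all probes the calls rose to 41, with Psmb7 and Psmd12 added in liver. Counts of members regulated in liver were 1 each at 1 h after 1.7 kBq, 1 h after 105 kBq and 6 h after 1.7 kBq, and became 0, 0 and 0 both with background subtracted and with only the 2 groups in the fit, while the differences themselves were as large or larger (Psmb9 -1.11 and -1.46, Psmd11 -0.78 with background subtracted). With an adjusted p under 0.05 and no fold limit they were 3 at 1 h after 1.7 kBq, 5 after 105 kBq, and 4 rather than 0 after 7.5 kBq. The share of all probes at that looser limit was not taken, so these counts are not read as regulation of the members. The cause of the changes in count was not tested. Leaving out single arrays gave 0 to 1 in each of these comparisons, including 0 to 1 after 7.5 kBq, where Psmd9 passed without control replicate 1 and Psmb9 (-0.75) without control replicate 3. At 1 h after 1.7 kBq, the member called without control replicate 1 was Psmd9 in place of Psmb9. Adjusted p over these omissions was 0.00112 to 0.0366 and 0.000581 to 0.0533 for Psmb9 after 1.7 and 105 kBq, and 0.00497 to 0.0224 for Psmd11. At 2-fold or more, control counts were 2 in kidney cortex, 2 in medulla, 0 in liver, 1 in lung and 7 in spleen, against 4, 6, 9, 6 and 14, and background subtraction gave 10 in lung, with Psmd11, Psmd2, Psmd5 and Psme2 added as lower. In liver it added Psmb8, Psmd12, Psmd2 and Psmg1 as higher. The lung call of Psmb9 ended without lung replicate 1 (0.58, adjusted p = 0.0186). Under cyclic loess the calls of Psmb7 in medulla and of Psmd13, Psme3 and Psma2 in liver ended (-0.20 for Psma2, adjusted p = 0.0656). The F test at 6 h after 1.7 kBq gave 1 rather than 0 members without the 4 arrays that carry another tissue's transcripts. With the replicate block, 39 of 39 control calls and all 45 counts stayed as they were. Deviations of same-numbered arrays had a median correlation of 0.15 between control tissues (-0.08 to 0.53, with 19 of 30 over 0.1). It was 0.06 between exposed tissues and 0.03 between exposed and control. Differently numbered arrays had -0.09, -0.04 and -0.02. Control replicate 1 also had the highest neutrophil list of the control arrays in each tissue. The labels do not pair the numbers with mice, and the main fits did not use them, so shared control mice were not taken into account. The medians, ranges and correlations without the 4 arrays were chosen after seeing the data. Leaving out control replicate 1 for Psmd8 was also chosen after seeing the data, and the count of comparisons with a lower value became 9 rather than 25.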

Other observations

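Psmd8 was chosen for a closer look after its values were seen. Of all 25697 probes, 1 had a control replicate number that lay at least 1 log2 unit above both other control arrays in each of the 5 tissues, and that probe was Psmd8, with replicate 1. For replicates 2 and 3, and for values at least 1 unit under the others, the count was 0 each. Its log2 signal was 9.91 to 10.54 (median 10.09) on these 5 arrays, against 7.65 to 8.78 (median 8.30) on the remaining 75. The labels do not say whether arrays of 1 number come from 1 mouse, and no cause of the difference was tested.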
